A study of Mus musculus with 9 samples.

Results

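The comparison set the brains of 2 inbred mouse strains, BALB/cJ and C57BL/6ByJ, against each other: 6 of the series' 9 arrays, chosen by strain name. Each array held 10 pooled brain hemispheres, without cerebellum, of untreated adult males aged 11 ± 1 weeks. The arrays (Mouse Genome 430 2.0) were 3 per strain and drew on 30 mice per strain. The remaining 3 arrays, of the strain B6By.C.132.54, entered the estimate of the spread and the mean level by which each gene's probe set was chosen, and no comparison. Neither strain compared here carries an engineered allele or was given an agent, by the labels. A pool averages over mice, so the errors below describe scatter between pools, and the number of arrays limits the precision of every value. Whole hemispheres mix cell types, so fewer cells of a type and less RNA per cell cannot be told apart.

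Inbred strains are fixed for many sequence differences, some of which alter how much RNA a gene makes, how it is spliced or where it ends. BALB/c and C57BL/6 mice are known as contrasting strains in tests of anxiety, social behaviour and alcohol intake. A 3′ expression array reads short stretches near a transcript's end with sets of probes, and many genes are covered by several sets that bind different stretches. A sequence difference under the probes and a difference in RNA level cannot be told apart where a gene has 1 probe set, so genes read by several sets are described first.

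Of 45037 probe sets, 229 (0.508%) were higher in BALB/cJ and 415 (0.921%) lower (limma, Benjamini-Hochberg adjusted p under 0.05). Each gene was then represented by its probe set with the highest mean over the 9 arrays. Of 18193 genes so measured, 82 (0.451%) were higher and 159 (0.874%) lower, or 241 (1.32%) in all. Differences were mostly moderate: 25 of these genes were at least 2-fold higher and 49 at least 2-fold lower, 152 differed by 0.5 to 1 on the log2 scale and 15 by less than 0.5. The median of the differences over all genes was 0.0154 on the log2 scale. The strains' arrays did not overlap in any of the 241 called genes, against 2460 (13.5%) of all genes. With the replicate number as a block, all 241 were called again together with 121 others, 362 genes (1.99%) in all, of which 126 were higher and the others lower. The gene count was 152 without C57BL/6ByJ replicate 2, 157 without C57BL/6ByJ replicate 1 and 154 without BALB/cJ replicate 2, and the probe set count was 410 without C57BL/6ByJ replicate 2. Over all genes, 1415 had an unadjusted p under 0.05.

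Calls were spread over the range of levels except at the bottom. Among the dimmest 4549 genes, with mean levels up to 3.34 log2 intensity, 1 was higher and 1 lower (0.044%). The next 4548 genes held 15 higher and 31 lower genes (1.01%), the third 33 and 57 (1.98%) and the brightest 33 and 70 (2.26%). The median standard error (SE) of the difference was 0.103 to 0.114 in these 4 groups.

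**Figure D1:**
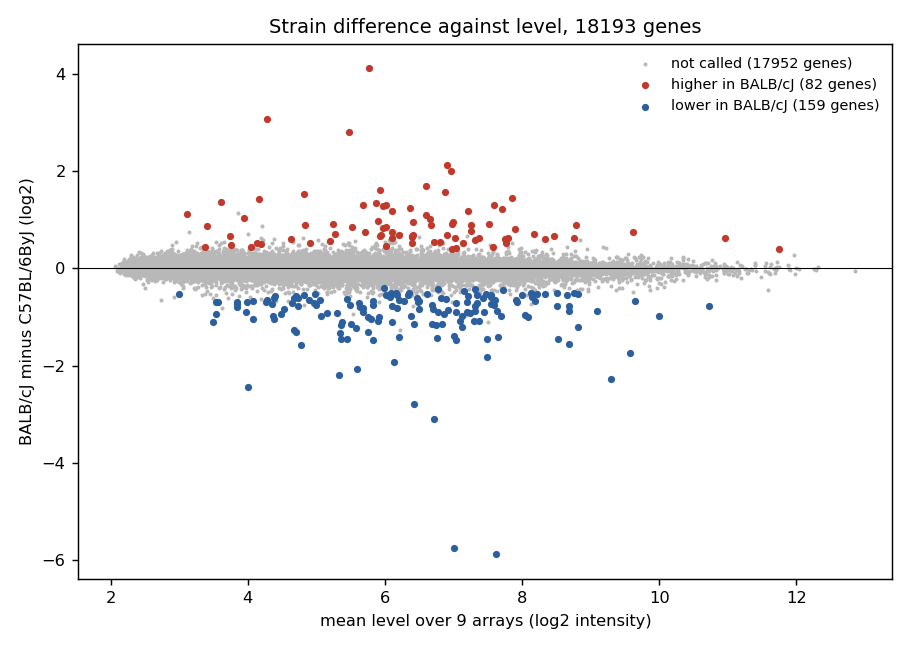
Log2 difference between BALB/cJ and C57BL/6ByJ (vertical axis) against the mean log2 intensity over 9 arrays (horizontal axis), 1 point per gene. The 82 genes called higher and 159 called lower lie at all levels above the dimmest, and the grey genes that were not called centre on 0.

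Several probe sets read the same gene for 9010 genes, and 318 of these had at least 1 called probe set. In 270 of the 318 exactly 1 probe set was called. In 41 at least 2 were called in the same direction and none in the other, 19 higher and 22 lower in BALB/cJ, and in 7 calls ran both ways (Kcnj9, Pdxdc1, Prune2, Ptp4a2, Slc15a2, Slc25a51 and Sox11). In 16 genes every probe set was called alike, 9 higher and 7 lower. Of the 241 called genes, 87 had a single probe set, and of the 154 with several, 115 had no other called. A gene given below without mention of other probe sets may have others that were not called. Of the 41 genes, 23 kept at least 2 calls in every fit that left out 1 of the 9 arrays. With the median over a gene's probe sets in place of the brightest, 6 of 108 called genes described below turned direction. Slc25a51 was called higher. Chd8, Sox11, Tbc1d24, Zfp207 and Zfp945 lay between 0.03 and 0.32 and were not called (limma adjusted p from 0.237 to 0.982). That median also ended the calls of Aldh7a1, Alg9, C1qb, Cdh7, Cep44, Gfra1, Grik1, Id2, Lpcat2, Ncapd2, Snx6, Six4 and Zfp961, among others. The genes called alike numbered 27 without C57BL/6ByJ replicate 2 and 66 with the replicate block.

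**Figure D2:**
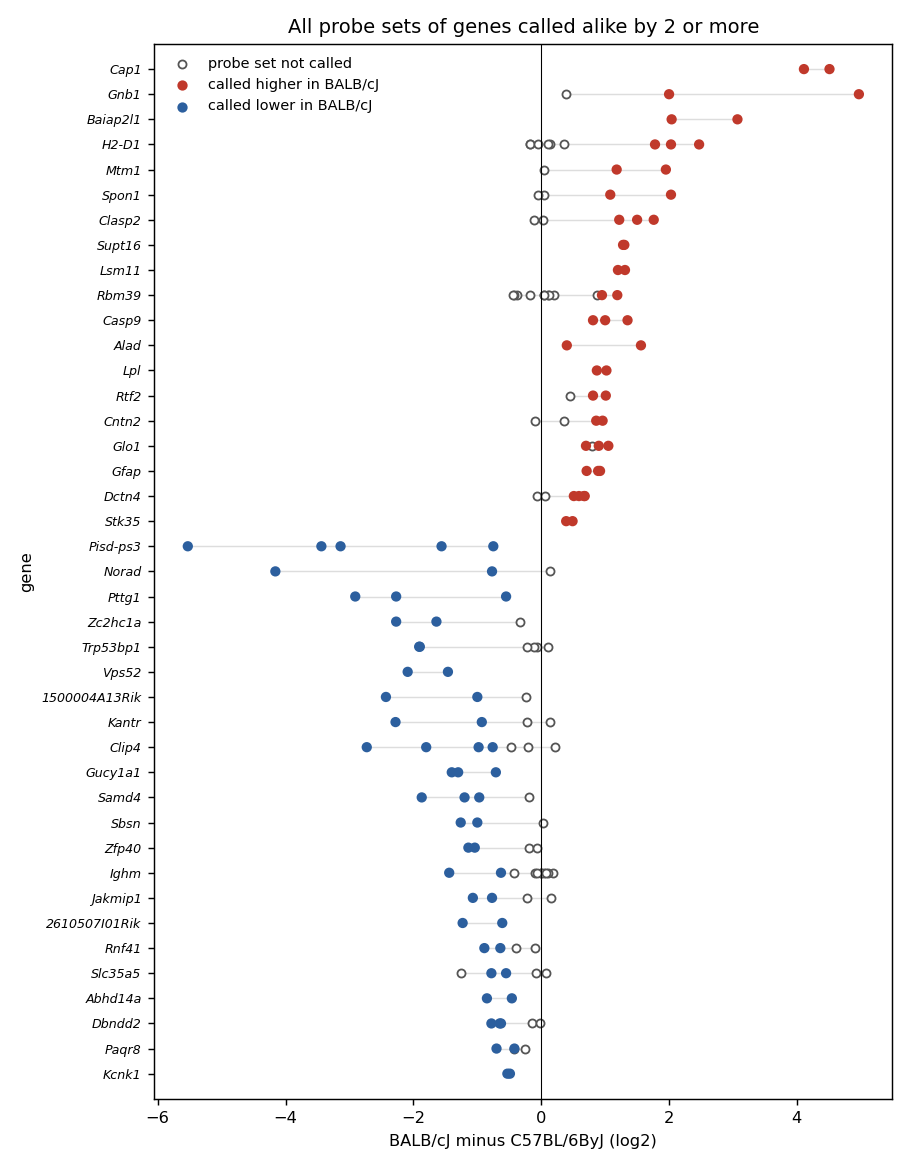
Log2 difference of every probe set (dot) of the 41 genes with at least 2 probe sets called alike; filled dots were called by limma, open dots were not. In Casp9, Pttg1, Gucy1a1 and Pisd-ps3 all dots are filled and on 1 side, while in H2-D1, Rbm39 and Ighm most dots are open and lie near 0.

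Promoters are shown for 4 genes in which every probe set was called alike, as reference points for genes whose difference does not rest on 1 probe set. Where these probe sets lie on the transcripts was not read. Cap1 and Casp9 were higher in BALB/cJ, and Pttg1 and Gucy1a1 lower. The sequences are RefSeq's for the assembly GRCm38.p6, which is built from a C57BL/6 mouse, and run from 250 bases before to 50 bases after the start of the gene. They lie at chr4:122886027-122886326 (Cap1, minus strand), chr4:141793362-141793661 (Casp9, plus strand), chr11:43425932-43426231 (Pttg1, minus strand) and chr3:82145601-82145900 (Gucy1a1, minus strand, the first of 2 listed starts). Capitals mark matches to 4 promoter motifs, searched on both strands, with no overlapping bases between matches.
Cap1: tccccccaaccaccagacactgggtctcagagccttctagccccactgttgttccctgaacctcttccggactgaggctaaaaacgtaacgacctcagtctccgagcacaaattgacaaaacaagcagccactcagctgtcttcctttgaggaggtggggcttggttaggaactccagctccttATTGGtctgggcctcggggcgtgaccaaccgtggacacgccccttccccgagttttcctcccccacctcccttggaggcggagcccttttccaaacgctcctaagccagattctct
Casp9: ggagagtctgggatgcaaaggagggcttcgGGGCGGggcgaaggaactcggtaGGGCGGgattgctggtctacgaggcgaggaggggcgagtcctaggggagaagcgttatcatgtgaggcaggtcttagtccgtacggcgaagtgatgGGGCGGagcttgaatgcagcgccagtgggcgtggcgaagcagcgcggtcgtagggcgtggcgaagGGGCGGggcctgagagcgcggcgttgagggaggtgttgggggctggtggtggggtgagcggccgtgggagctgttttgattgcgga
Pttg1: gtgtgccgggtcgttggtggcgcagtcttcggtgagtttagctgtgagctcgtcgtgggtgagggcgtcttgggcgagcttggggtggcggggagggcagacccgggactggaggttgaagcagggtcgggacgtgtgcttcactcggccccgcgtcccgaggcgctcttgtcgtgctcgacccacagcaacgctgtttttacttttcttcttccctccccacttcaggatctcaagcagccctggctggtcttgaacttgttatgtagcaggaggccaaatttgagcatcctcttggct
Gucy1a1: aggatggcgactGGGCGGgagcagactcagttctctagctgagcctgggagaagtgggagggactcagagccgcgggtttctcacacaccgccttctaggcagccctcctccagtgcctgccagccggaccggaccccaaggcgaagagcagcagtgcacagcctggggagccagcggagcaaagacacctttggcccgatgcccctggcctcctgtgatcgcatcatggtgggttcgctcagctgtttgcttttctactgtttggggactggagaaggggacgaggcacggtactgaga
The motif TATAAA, the TATA box, occurred in 14.2% of the 27025 RefSeq promoters of this length. The motif CCAAT, the CCAAT box, occurred in 37.9%, GGGCGG, the GC box, in 35.9%, and TGACGTCA, the core of the cyclic AMP response element, in 1.88%. Casp9 held 4 GC boxes and Gucy1a1 held 1. Cap1 held 1 CCAAT box on the other strand and Pttg1 held none of the motifs. Over the 14 of the 16 genes that have an entry, 8 promoters held a GC box, 5 a CCAAT box and none the other motifs. These matches describe the reference sequence, and the BALB/cJ sequence was not read.

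Casp9, the initiator caspase of the mitochondrial death pathway, was higher in BALB/cJ by all 3 of its probe sets. On the brightest the BALB/cJ arrays read 6.51, 6.95 and 6.93 log2 intensity and the C57BL/6ByJ arrays 5.33, 5.56 and 5.46, a 2.54-fold difference (1.35 ± 0.171 log2, SE; limma adjusted p = 0.00167). The other probe sets were higher by 1.00 and 0.81 (limma adjusted p = 0.000823 and 0.00179). Lsm11, a component of the U7 particle that trims histone transcripts, was higher by 1.31 and 1.20 on its 2 probe sets (limma adjusted p = 0.00148 and 0.00259). Its BALB/cJ arrays read 6.44, 6.51 and 6.70 against 4.93, 5.28 and 5.51 on the brighter one. Supt16, a subunit of the histone chaperone FACT, read 8.39, 8.62 and 8.43 against 7.07, 7.26 and 7.20 (2.46-fold; limma adjusted p = 3.53e-05). Its dimmer probe set was called as well (1.28; limma adjusted p = 0.0289), but that second call was lost without C57BL/6ByJ replicate 1, 2 or 3 or BALB/cJ replicate 1 or 2. In all 3 genes each BALB/cJ array lay above each C57BL/6ByJ array.

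Pttg1, which encodes securin, the guard of sister chromatid separation, was lower in BALB/cJ on all 3 probe sets. Its BALB/cJ arrays read 7.71, 7.90 and 7.76 against 9.92, 10.10 and 10.15, a 4.81-fold difference (limma adjusted p = 2.94e-07), and the other probe sets were lower too (-2.91 and -0.55). Gucy1a1, a subunit of the nitric oxide receptor soluble guanylyl cyclase, was at -0.71, -1.40 and -1.30 on its 3 probe sets, in log2 as BALB/cJ minus C57BL/6ByJ (limma adjusted p = 0.0299, 1.38e-05 and 0.00033). The call of the brightest ended on leaving out any of the 6 arrays (limma adjusted p from 0.0551 without C57BL/6ByJ replicate 3 to 0.151 without BALB/cJ replicate 3), while at least 2 of its probe sets stayed called in every such fit. Vps52, a tether of vesicles that return to the Golgi, read 4.48, 4.21 and 4.85 against 5.68, 6.16 and 6.08 (2.75-fold lower; limma adjusted p = 0.00202), and its other probe set was lower too (-2.09; limma adjusted p = 0.000565). Pisd-ps3, a pseudogene of a phospholipid-synthesis enzyme, was called lower on all 5 probe sets, from -0.75 to -5.53, and can share signal with its parent gene.

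In other genes of the 41 some probe sets were called and others were not. Clasp2, a protein that stabilises the growing ends of microtubules, was higher on 3 of 5 probe sets (1.22, 1.50 and 1.76), and the other 2 were dim in both strains. Clip4, a linker protein with microtubule-binding domains, was lower on 4 of 7 probe sets, from -0.76 to -2.73. Norad, a long noncoding RNA that binds Pumilio proteins and is among the brighter transcripts here, fell by 0.77 on a probe set at 11.06 in C57BL/6ByJ (limma adjusted p = 0.00815) and by 4.16 on one at 8.33 (limma adjusted p = 3.5e-07). The smaller Norad difference lost its call on leaving out either BALB/cJ replicate 2 or replicate 3, with limma adjusted p of 0.0502 and 0.0523. Gnb1, a beta subunit of heterotrimeric G proteins, was higher by 2.00 on its brightest probe set and by 4.97 on the next. Mtm1, the phosphatase of phosphoinositides mutated in a congenital myopathy, was higher by 1.18 and 1.95. The first of these was lost without C57BL/6ByJ replicate 2 or 3 (limma adjusted p = 0.0601 and 0.0911). The probe sets of Norad, Gnb1 and Mtm1 that were not called lay under the median of all probe sets in both strains.

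In 9 of the 41 genes the brightest probe set was not called although 2 or more dimmer ones were. H2-D1, a class I histocompatibility gene with close relatives in its cluster, was higher on 3 of 9 probe sets (1.78, 2.03 and 2.47), all 3 below the median of all probe sets in C57BL/6ByJ, while its brightest read 7.24 ± 0.0347 against 7.42 ± 0.183 (SD, n = 3; limma adjusted p = 0.835). Trp53bp1, a sensor of broken DNA, was lower on 2 of 6 probe sets (-1.90 and -1.91), and its brightest read 7.72 ± 0.132 against 7.78 ± 0.100. Zc2hc1a was lower on 2 of 3 (-2.27 and -1.64) and the long noncoding RNA Kantr on 2 of 4 (-2.28 and -0.93), again without their brightest. Spon1, a secreted protein of axon growth, was higher on 2 of 4 (1.08 and 2.03) and Rbm39, a splicing coactivator, on 2 of 12 (0.95 and 1.19). The second call of Spon1 was lost without any 1 of the C57BL/6ByJ arrays or BALB/cJ replicate 1 or 2, and that of Rbm39 without C57BL/6ByJ replicate 2 or 3 or BALB/cJ replicate 1. The transcript 1500004A13Rik was lower on 2 of 3 probe sets, at 2.53 against 4.97 on the brightest.

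The lists of functions covered 6324 genes in 56 lists. Of the 241 called genes, 91 stood in a list and 150 in none, and 44 lists held a called gene. List medians ran from -0.0525 to 0.0641 on the log2 scale, against 0.0154 over all genes, so whole lists hardly moved and the differences lay in single members. A gene counts in a list by its brightest probe set alone. The shares called in a list are read against the 1.32% of all genes.

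**Figure D3:**
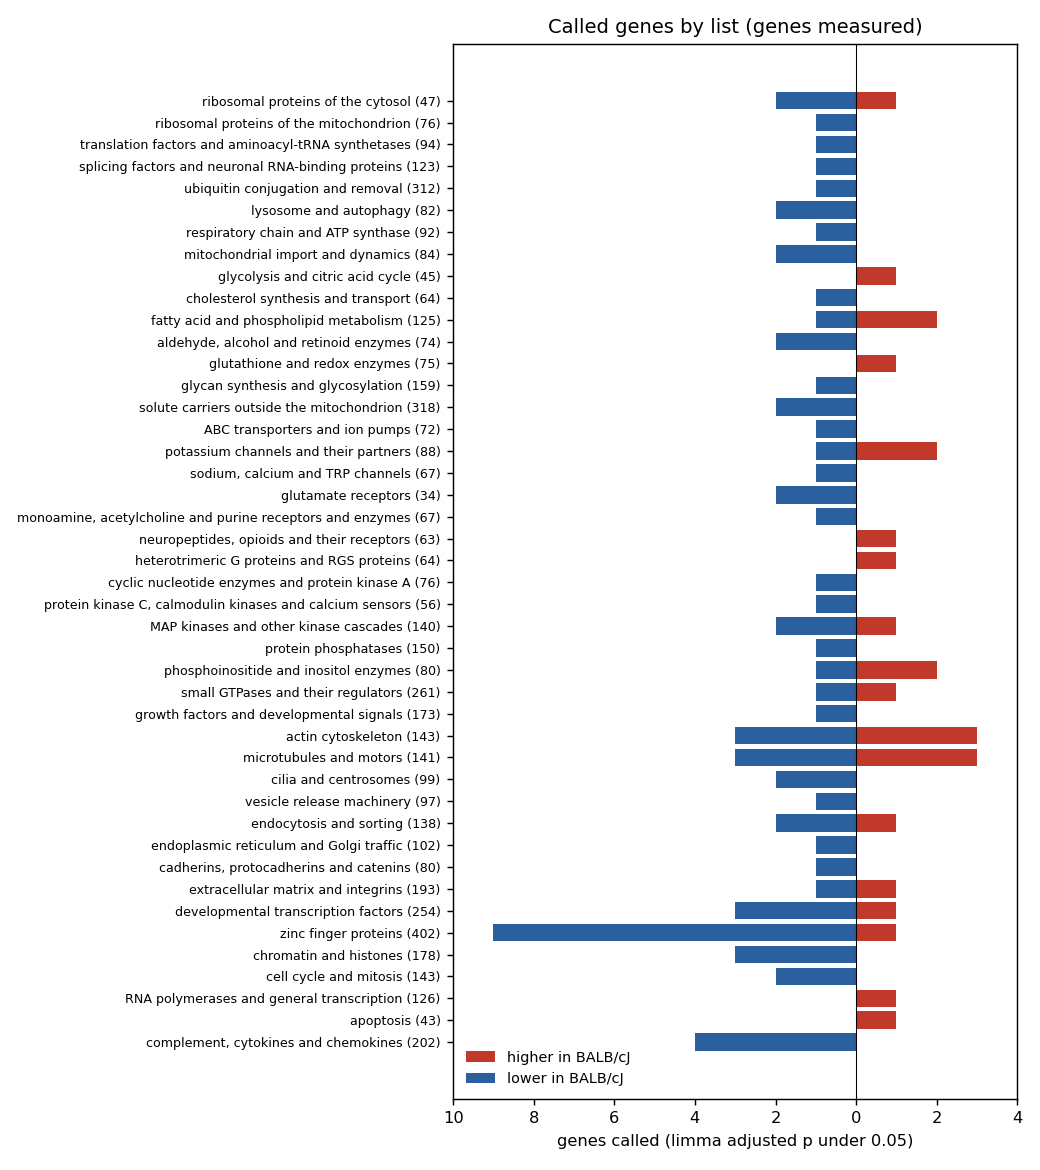
Genes called by limma in the 44 lists with at least 1 call, higher in BALB/cJ to the right and lower to the left, with the number of measured genes in brackets. Zinc finger proteins have the longest bar (1 higher, 9 lower of 402), and the cytoskeleton lists are evenly divided (3 each way).

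The cytoskeleton held 12 called genes. Of 141 genes of microtubules and their motors, 3 rose and 3 fell (4.26%; median 0.00584), and of 143 genes of the actin cytoskeleton 3 rose and 3 fell (4.2%; median 0.0176). Both members of the CLASP family rose. Clasp2 read 8.74, 8.64 and 8.30 in BALB/cJ against 7.58, 7.16 and 7.28 (2.33-fold; limma adjusted p = 0.000717), and Clasp1, named after its values were seen, 7.78, 7.88 and 7.90 against 6.88, 6.98 and 7.06 (1.84-fold; limma adjusted p = 0.000314). None of the 3 other probe sets of Clasp1 was called. Dctn4, a subunit of the dynactin complex that couples dynein to cargo, also named afterwards, rose 1.43-fold with 3 of its 5 other probe sets. The call of its brightest was lost without C57BL/6ByJ replicate 1 or 3 or BALB/cJ replicate 2 (limma adjusted p = 0.078, 0.079 and 0.0786).

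Kif5b, the ubiquitous heavy chain of kinesin-1, a motor that carries cargo out along axons, fell 2.30-fold. Its BALB/cJ arrays read 7.83, 8.13 and 8.22 against 9.15, 9.19 and 9.44 (limma adjusted p = 0.000812), and none of its 5 other probe sets was called. Dcx, doublecortin, which marks migrating young neurons, read 4.60, 4.94 and 5.16 against 6.55, 6.74 and 7.20 (3.81-fold lower; limma adjusted p = 0.000683), with none of 3 others called. Clip4 fell 1.97-fold on its brightest probe set (limma adjusted p = 0.000117). In each of these 3 genes the highest BALB/cJ array lay below the lowest C57BL/6ByJ array.

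Among actin genes, Cap1, which recycles actin monomers, had the larger of the rises at 17.3-fold, with both probe sets called (4.11 and 4.51). Baiap2l1, an adaptor that bends membranes at actin-rich protrusions, was at 6.29 against 3.21, the latter below the median of all probe sets. Pfn1, profilin, which feeds actin monomers to growing filaments, rose 1.54-fold (8.06, 8.14 and 8.37 against 7.48, 7.66 and 7.58; limma adjusted p = 0.00848). The Pfn1 call was lost without C57BL/6ByJ replicate 1 (limma adjusted p = 0.0502). Cyfip2, a subunit of the WAVE complex that starts branched actin at synapses, fell 1.85-fold (8.59, 8.56 and 8.52 against 9.51, 9.51 and 9.30, limma adjusted p = 0.00033). Neither of its 2 other probe sets was called. Myo7a, an unconventional myosin known from the hair cells of the ear, was at 3.75 against 5.33 (limma adjusted p = 2.97e-05), below the median in BALB/cJ. Myh7, a muscle myosin heavy chain, fell 1.59-fold, a call that ended on leaving out any of the 6 arrays (limma adjusted p from 0.0606 to 0.164). Pfn1, Cyfip2 and Myh7 were named after their values were seen. Of 99 genes of cilia and centrosomes 2 fell (2.02%): Rpgrip1, a scaffold of the ciliary base, at 3.19 against 8.93 with none of its 3 other probe sets called, and Cep44, a centrosomal protein, from 3.88 to 2.94, both under the median of all probe sets.

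**Figure D4:**
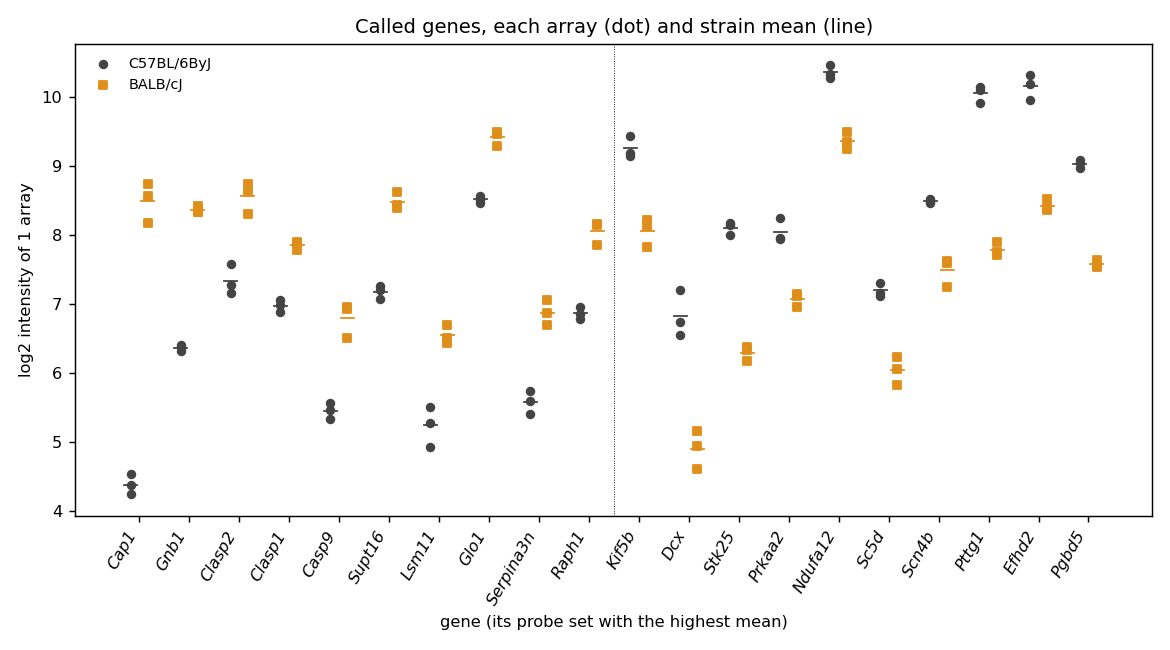
Log2 intensity of each array (dots, C57BL/6ByJ; squares, BALB/cJ) and strain mean (lines) for 10 genes called higher in BALB/cJ, left of the dotted line, and 10 called lower. The strains' arrays do not overlap in any of the 20 genes, as in all 241 called genes and in 13.5% of all genes. Kif5b arrays read 7.83 to 8.22 in BALB/cJ and 9.15 to 9.44 in C57BL/6ByJ.

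Signalling enzymes were called one at a time. Of 140 genes of MAP kinases and other kinase cascades 1 rose and 2 fell (2.14%). Stk25, a kinase of the Golgi and of neuronal polarity, read 6.17, 6.37 and 6.34 in BALB/cJ against 8.0, 8.15 and 8.17 (3.52-fold lower; limma adjusted p = 1.32e-06), on its single probe set. Prkaa2, the catalytic alpha 2 subunit of the energy sensor AMPK, read 7.11, 7.15 and 6.96 against 7.96, 7.94 and 8.24 (1.96-fold lower; limma adjusted p = 0.000921). In both kinases the strains' arrays did not overlap, as in all 241 called genes. Neither of the 2 other probe sets of Prkaa2 was called. Stk35, a nuclear kinase, rose 1.41-fold on the brighter of its 2 probe sets and by 0.39 on the other, which was under the median of all probe sets in both strains (limma adjusted p = 0.0245 and 0.0406). The brighter call was lost without C57BL/6ByJ replicate 1 or 3 or any 1 BALB/cJ array (limma adjusted p from 0.0553 to 0.125).

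Of 80 phosphoinositide and inositol enzymes 2 rose and 1 fell (3.75%). Pi4kb, which makes phosphatidylinositol 4-phosphate at the Golgi, was at 5.08 in BALB/cJ and 3.65 in C57BL/6ByJ, where it was dim, under the median probe set (limma adjusted p = 0.000153). Mtm1 rose 2.26-fold, with the array dependence given above for C57BL/6ByJ replicates 2 and 3. Inpp1, an inositol phosphatase inhibited by lithium, fell 1.73-fold (5.0, 5.35 and 5.04 against 5.92, 5.86 and 6.00; limma adjusted p = 0.00363). Gnb1 rose 3.99-fold as the 1 called gene of 64 G protein and RGS genes (1.56%), and Gucy1a1 was the 1 of 76 genes of cyclic nucleotides and protein kinase A (1.32%).

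Of 261 small GTPases and their regulators 1 rose and 1 fell (0.766%). Tbc1d24, a regulator of vesicle traffic known from human epilepsies, fell 2.20-fold (5.93, 5.52 and 5.49 against 6.56, 7.10 and 6.69; limma adjusted p = 0.00601), with neither of its 2 other probe sets called. Rab3gap1, which acts on the synaptic vesicle GTPase Rab3, rose 1.53-fold, a call lost without C57BL/6ByJ replicate 1 or 2 or any 1 BALB/cJ array (limma adjusted p from 0.11 to 0.174). Prkca, protein kinase C alpha, fell 1.42-fold and was lost without C57BL/6ByJ replicate 2 or BALB/cJ replicate 1 or 3 (in turn 0.0639, 0.0527 and 0.0525 for the limma adjusted p). Neither of its 2 other probe sets was called. Gfra1, a receptor subunit for GDNF, fell 1.46-fold and was lost without C57BL/6ByJ replicate 1 or 3 or BALB/cJ replicate 1 or 3 (limma adjusted p from 0.0538 to 0.0593). Ppp1r3e, which targets protein phosphatase 1 to glycogen, was at 3.76 against 4.75 and was lost without C57BL/6ByJ replicate 2 or BALB/cJ replicate 1 or 2 (in turn 0.0598, 0.0932 and 0.108 for the limma adjusted p). Prkca was 1 of 56 genes of its list, Gfra1 1 of 173 growth factors and developmental signals, and Ppp1r3e 1 of 150 phosphatase genes.

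Channels and receptors gave few calls. Of 67 sodium, calcium and TRP channel genes 1 fell (1.49%). It was Scn4b, the beta 4 subunit that shapes fast sodium currents, at 7.25, 7.59 and 7.63 in BALB/cJ against 8.47, 8.53 and 8.49 (2.01-fold; limma adjusted p = 0.000561). Of 88 potassium channel genes 2 rose and 1 fell (3.41%). Kcnj9, a subunit of G protein-gated inward rectifiers, rose 3.25-fold (8.12, 7.67 and 7.94 against 6.16, 6.23 and 6.23; limma adjusted p = 0.000399), and its 3 other probe sets split, 1 called higher and 1 lower. Kcnj10, the inward rectifier of astrocytes and the next measured gene on chromosome 1, rose 1.59-fold and was lost without C57BL/6ByJ replicate 3 or any 1 BALB/cJ array (limma adjusted p from 0.0527 to 0.0726). Kcnk1, a background potassium channel, fell 1.44-fold on the brighter of its 2 probe sets and 1.41-fold on the other. The brighter call was lost without C57BL/6ByJ replicate 2 or BALB/cJ replicate 1 (limma adjusted p = 0.0766 and 0.0603).

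Of 34 glutamate receptor genes 2 fell (5.88%; median 0.00718). Grin2b, the NMDA receptor subunit prominent in young and forebrain neurons, read 5.52, 5.12 and 5.58 against 6.39, 6.70 and 6.45 (2.16-fold; limma adjusted p = 0.000914), and none of its 3 other probe sets was called. Grik1, a kainate receptor subunit, was at 3.41 against 4.45 and was not called on the log2(value + 16) scale (limma adjusted p = 0.0549). Sstr1, a somatostatin receptor, was the 1 gene called higher of 63 neuropeptide and opioid genes (1.59%), at 3.89 against 2.77, both below the median of all probe sets. Maob, which degrades monoamines, fell 1.52-fold as the 1 of 67 genes of monoamines, acetylcholine and purines (limma adjusted p = 0.00818). No gene was called among 25 GABA and glycine receptors (lowest limma adjusted p = 0.0852; 3 genes at an unadjusted p under 0.05).

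Of the called mitochondrial genes described here all but 1 fell, and 159 of all 241 called genes were lower. Ndufa12, an accessory subunit of respiratory complex I, read 9.50, 9.35 and 9.25 in BALB/cJ against 10.46, 10.34 and 10.28 (1.99-fold; limma adjusted p = 0.000375) as the 1 of 92 respiratory chain and ATP synthase genes (1.09%; median -0.0178), and none of its 3 other probe sets was called. Of 84 genes of import and dynamics 2 fell (2.38%). Chchd4, which folds imported proteins in the intermembrane space, read 6.25, 6.39 and 6.13 against 7.62, 7.30 and 7.32 (2.23-fold; limma adjusted p = 0.000473). Slc25a51, the carrier that brings NAD into mitochondria, fell 1.70-fold, but 1 of its 2 other probe sets was called higher, and so was the median over its probe sets (0.45; limma adjusted p = 0.0175). Mrpl55, the 1 called of 76 mitochondrial ribosomal proteins, fell 1.86-fold and was lost without C57BL/6ByJ replicate 2 or 3 or BALB/cJ replicate 1 or 2 (limma adjusted p from 0.0538 to 0.0848). Me3, a mitochondrial malic enzyme that makes NADPH, was the exception and rose 1.93-fold (6.92, 7.11 and 7.19 against 5.86, 6.30 and 6.20; limma adjusted p = 0.00579), 1 of 45 genes of glycolysis and the citric acid cycle.

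Lipid and detoxifying enzymes went both ways. Sc5d, a late enzyme of cholesterol synthesis, read 5.83, 6.23 and 6.06 against 7.16, 7.12 and 7.31 (2.23-fold lower; limma adjusted p = 0.000752) and was the 1 called of 64 cholesterol genes (1.56%; median 0.0156), with neither of 2 other probe sets called. Of 125 genes of fatty acids and phospholipids 2 rose and 1 fell (2.4%). Pla2g4e, a calcium-dependent enzyme that makes N-acyl phospholipids, rose 1.85-fold (5.45, 5.45 and 5.51 against 4.44, 4.75 and 4.58; limma adjusted p = 0.0026). Fabp7, the lipid-binding protein of radial glia and astrocytes, rose 1.53-fold and was lost without C57BL/6ByJ replicate 2 or 3 or BALB/cJ replicate 1 or 2 (limma adjusted p from 0.0563 to 0.0858). Lpcat2, which makes platelet-activating factor, fell 1.42-fold and was lost without C57BL/6ByJ replicate 2 or 3 or any 1 BALB/cJ array (limma adjusted p from 0.0761 to 0.163).

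Both called genes of 74 aldehyde, alcohol and retinoid enzymes (2.7%) fell. Aldh1a1, which makes retinoic acid, read 6.85, 6.73 and 6.62 against 8.28, 8.21 and 7.95 (2.66-fold; limma adjusted p = 0.000182), and Aldh7a1, an aldehyde dehydrogenase of lysine breakdown, fell 1.87-fold (limma adjusted p = 0.00417). The 2 other probe sets of Aldh7a1 were not called, and the median over its probe sets was -0.03 (limma adjusted p = 0.978). Glo1, which clears methylglyoxal, rose on 3 of its 4 probe sets, by 0.90, 1.05 and 0.70, and read 9.29, 9.46 and 9.50 against 8.47, 8.51 and 8.57 on the brightest. Alg9, a mannosyltransferase of N-glycan assembly, fell 1.69-fold as the 1 of 159 glycosylation genes. The Alg9 call was lost without any 1 of the 3 C57BL/6ByJ or the 3 B6By.C.132.54 arrays or BALB/cJ replicate 1 or 2 (limma adjusted p from 0.0536 to 0.239).

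Among transporters, 2 of 318 solute carriers fell (0.629%) and 1 of 72 ABC transporters and pumps (1.39%). Abcc1, an exporter of conjugated and drug molecules, read 5.09, 5.09 and 5.01 against 5.77, 5.85 and 5.85 (1.70-fold; limma adjusted p = 0.000314). Slc17a7, which loads glutamate into the synaptic vesicles of cortical neurons, read 6.75, 6.25 and 6.77 against 7.81, 8.15 and 8.17 (2.74-fold; limma adjusted p = 0.00272) and was also the 1 called of 97 genes of vesicle release. Slc15a2, the peptide transporter of astrocytes and choroid plexus, fell 1.77-fold on its brightest probe set, with 1 of the 2 others called lower and 1 higher. With the replicate block 3 further solute carriers, named after their values were seen, were lower by their brightest probe sets: Slc35a5, Slc39a10 and Slc6a15 (limma adjusted p = 0.000276, 0.026 and 0.0261 with the block, and 0.477, 0.382 and 0.17 without it). Slc35a5 was called lower on 2 dimmer probe sets of 5 without the block too (-0.78 and -0.55; limma adjusted p = 0.00172 and 0.0265). At least 2 calls were kept in 5 of the 9 fits that left out 1 array.

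Ribosomes and their factors make proteins, and the ubiquitin system marks them for breakdown. Of 47 cytosolic ribosomal proteins 1 rose and 2 fell (6.38%; median -0.00351). Rps2 rose 1.55-fold (11.42, 11.35 and 11.43 against 10.78, 10.79 and 10.75; limma adjusted p = 0.00202), Rps6 fell 1.85-fold (limma adjusted p = 0.00174), and Rps4l, a relative of Rps4x, fell 2.65-fold (5.31, 5.18 and 5.37 against 6.54, 6.84 and 6.71; limma adjusted p = 3.17e-05). Ribosomal proteins have many processed copies in the genome, and probes may read several of them. Rbm28, a nucleolar protein of ribosome assembly, fell 2.64-fold (5.88, 5.95 and 6.41 against 7.51, 7.34 and 7.59; limma adjusted p = 0.000199). It was the 1 splicing and RNA-binding gene called by its brightest probe set (0.813% of its list). Rbm39, of the same list, was called higher on 2 dimmer probe sets, as given above. Eif3a, the scaffold of a translation initiation factor, fell 1.59-fold as the 1 of 94 translation genes. It was lost without C57BL/6ByJ replicate 1 or 3 or BALB/cJ replicate 1 or 2 (limma adjusted p from 0.0537 to 0.0695). None of its 3 other probe sets was called.

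Rnf41, a ubiquitin ligase that limits neuregulin receptors, fell 1.85-fold (6.49, 6.82 and 6.72 against 7.43, 7.67 and 7.60; limma adjusted p = 0.00245), the 1 called of 312 ubiquitin genes (0.321%), a share below that of all genes. Its second called probe set was lost without any 1 of the C57BL/6ByJ arrays or BALB/cJ replicate 1 or 2. Atg4c, a protease that prepares the membrane tags of autophagy, read 5.11, 4.88 and 5.44 against 6.07, 6.07 and 6.31 (2.01-fold lower; limma adjusted p = 0.00278). Npc1, which moves cholesterol out of lysosomes, fell 1.76-fold and dropped out on leaving out any of the 6 arrays (limma adjusted p from 0.0507 to 0.168). These were the 2 of 82 genes of lysosomes and autophagy (2.44%).

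In traffic and adhesion most calls were not kept in every fit that left out 1 array. Of 138 genes of endocytosis and sorting 1 rose and 2 fell (2.17%). Vps52 kept its call without any 1 array. Snx6, a retromer partner, fell 1.46-fold and was lost without any 1 C57BL/6ByJ array or BALB/cJ replicate 1 or 2 (limma adjusted p from 0.0615 to 0.108). Vps33a, which fuses lysosomes, rose 1.44-fold and dropped out on leaving out any of the 6 arrays or B6By.C.132.54 replicate 1 (limma adjusted p from 0.0565 to 0.229). Sec24d, a coat protein of export from the endoplasmic reticulum, fell 1.51-fold and was lost without any 1 C57BL/6ByJ array, BALB/cJ replicate 1 or 3 or B6By.C.132.54 replicate 1 (limma adjusted p from 0.0539 to 0.166). The Cdh7 cadherin fell 1.65-fold and was lost without C57BL/6ByJ replicate 2 or BALB/cJ replicate 2 (limma adjusted p = 0.054 and 0.0581).

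Of 193 genes of extracellular matrix and integrins 1 rose and 1 fell (1.04%), and 3 rose and 2 fell with the replicate block. Itga6, a laminin receptor, fell 1.71-fold and was lost without any 1 C57BL/6ByJ array or BALB/cJ replicate 1 or 2 (limma adjusted p from 0.0603 to 0.125). Itgb1bp1, which restrains integrin activation, rose 1.59-fold and was lost without C57BL/6ByJ replicate 2 or 3 or BALB/cJ replicate 2 or 3 (limma adjusted p from 0.0618 to 0.0818). The genes called with the block alone, named after their values were seen, were Hapln4, of the matrix around neurons, and Itgb4, both higher, and Sdc4, lower (limma adjusted p = 0.00417, 0.00829 and 0.043 with the block, and 0.074, 0.102 and 0.114 without it). By its brightest probe set, no gene was called among 82 of axon guidance, which had the highest list median (0.0641; lowest limma adjusted p = 0.238; 4 genes at an unadjusted p under 0.05). Nor was any among 81 of postsynaptic scaffolds and synaptic adhesion (0.108; 4 genes). There Cntn6, named after its values were seen, was lower with the block (limma adjusted p = 0.043). Cntn2, also named afterwards, was called higher on 2 of 4 probe sets, without its brightest (0.96 and 0.86; limma adjusted p = 0.0381 and 0.0236). Both calls were kept in 2 of the 9 fits that left out 1 array.

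In the nucleus, zinc finger proteins made the longest list and the most calls, 1 higher and 9 lower of 402 (2.49%; median 0.00389). Most are poorly known DNA-binding proteins of a young and repetitive family, whose members a probe may not always separate. Zfp945 read 4.41, 4.71 and 4.15 against 5.61, 5.85 and 6.20 (2.76-fold lower; limma adjusted p = 0.00178), and its neighbour on chromosome 17, Zfp40, fell 2.20-fold with 2 of 4 probe sets called. Zfp939 read 5.11, 5.26 and 5.29 against 6.26, 6.25 and 6.40 (2.11-fold lower; limma adjusted p = 0.000201). Named after their values were seen, Zfp207, a mitotic protein also called BuGZ, fell 1.71-fold, Zfp33b fell 1.58-fold, and Zfp874a was at 3.90 against 4.83 (limma adjusted p = 0.00216, 0.00247 and 0.00148). Zscan29 was the 1 called higher, at 3.97 against 3.10. Zfp386 was lost without C57BL/6ByJ replicate 1 or 2 or BALB/cJ replicate 3 (limma adjusted p from 0.051 to 0.057), Zfp961 without C57BL/6ByJ replicate 2 or 3 or BALB/cJ replicate 1 or 2 (0.0694 to 0.0769), and Zkscan16 without C57BL/6ByJ replicate 2 or 3 or BALB/cJ replicate 1 (0.059 to 0.0682). With the block 3 zinc finger genes were higher and 12 lower.

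All 3 called genes of 178 chromatin and histone genes fell (1.69%). Chd8, a chromatin remodeller known from autism genetics, read 6.32, 6.80 and 6.75 against 7.42, 7.63 and 7.58 (1.89-fold; limma adjusted p = 0.00683), with none of 3 other probe sets called. Prmt5, an arginine methyltransferase, fell 1.62-fold and was lost without C57BL/6ByJ replicate 2 or 3 or BALB/cJ replicate 1 or 3 (limma adjusted p from 0.0555 to 0.0677). Smarce1, a subunit of SWI/SNF remodellers, fell 1.41-fold and was lost without C57BL/6ByJ replicate 1 or 3 or any 1 BALB/cJ array (limma adjusted p from 0.0534 to 0.157). Neither of its 2 other probe sets was called. Supt16 was the 1 called of 126 genes of RNA polymerases and general transcription (0.794%). Of 143 cell cycle genes Pttg1 and Ncapd2 fell (1.4%). Ncapd2, a condensin subunit, fell 1.46-fold and dropped out on leaving out any of the 6 arrays (limma adjusted p from 0.0597 to 0.195).

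Of 254 developmental transcription factors 1 rose and 3 fell (1.57%). Sox11, a factor of immature neurons like Dcx, fell 8.55-fold (4.49, 4.85 and 4.68 against 7.74, 7.60 and 7.97; limma adjusted p = 3.56e-07), but of its 5 other probe sets 1 was called higher and none lower. Zhx2, a repressor that silences fetal genes in the liver after birth, fell 1.69-fold (4.22, 4.66 and 4.58 against 5.23, 5.11 and 5.40) and was lost without C57BL/6ByJ replicate 1 or 3 or BALB/cJ replicate 1 or 3 (limma adjusted p from 0.0523 to 0.0938). Id2, an inhibitor of basic helix-loop-helix factors, fell 1.42-fold and was lost without C57BL/6ByJ replicate 1 or 2 or BALB/cJ replicate 1 (limma adjusted p from 0.0523 to 0.057). Six4, named after its values were seen, was at 4.09 against 3.63 and dropped out on leaving out any of the 6 arrays or B6By.C.132.54 replicate 1 (limma adjusted p from 0.0649 to 0.203).

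Immune genes gave 4 calls, all lower, among 202 genes of complement, cytokines and chemokines (1.98%; median 0.0300). Ccl27a, a chemokine gene with near-identical copies on chromosome 4, read 6.64, 6.78 and 6.81 against 7.61, 7.73 and 7.52 (1.83-fold; limma adjusted p = 0.00037), and its copies cannot be told apart here. Il33, an alarm cytokine made by oligodendrocytes and astrocytes, read 5.27, 4.89 and 4.71 against 6.69, 6.43 and 6.16 (2.77-fold; limma adjusted p = 0.0202) and was lost without C57BL/6ByJ replicate 1 or 2 or BALB/cJ replicate 2 or 3 (limma adjusted p from 0.0945 to 0.119). C1qb and C1qc, chains of the complement starter C1q that stand next to each other on chromosome 4, each fell 1.68-fold. The 2 other probe sets of C1qb were not called, and the median over its probe sets was -0.16 (limma adjusted p = 0.96). Leaving out C57BL/6ByJ replicate 2 ended the call of C1qc (limma adjusted p = 0.0613), and C1qb dropped out on leaving out C57BL/6ByJ replicate 1 or 2 or any 1 BALB/cJ array (limma adjusted p from 0.0505 to 0.101). No gene was called among 98 of interferon response and innate sensing (lowest limma adjusted p = 0.125; 8 genes at an unadjusted p under 0.05) or, by its brightest probe set, among 32 of MHC and antigen presentation (0.09; 4 genes).

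The labelled tissue carried its markers: 12 of 12 neuron, 11 of 11 astrocyte and 10 of 10 measured oligodendrocyte markers were above the median of all probe sets. Called among all markers were Slc17a7, C1qb, C1qc and Cldn5, lower, and Gfap, higher. Gfap, the intermediate filament of astrocytes, rose on all 3 of its probe sets (7.99, 8.09 and 8.09 against 6.96, 7.47 and 6.99 on the brightest; limma adjusted p = 0.00393). The summed intensity of the 11 astrocyte markers ran from 7599 to 7684 in BALB/cJ and from 7814 to 8445 in C57BL/6ByJ, so the sum was lower on every BALB/cJ array while Gfap was higher. The median log2 difference of the 11 was -0.032. Microglia markers, with C1qb and C1qc among them, overlapped in summed intensity, up to 1427 in BALB/cJ and down to 1380 in C57BL/6ByJ. Endothelial and pericyte markers, which include the tight junction gene Cldn5, summed to 1212 to 1276 against 1222 to 1350. The Cldn5 call dropped out on leaving out any of the 6 arrays or B6By.C.132.54 replicate 2 or 3 (limma adjusted p from 0.0511 to 0.213). Markers of glutamatergic cortical neurons, Slc17a7 included, summed to 2178 to 2284 against 2190 to 2569. Cerebellar markers summed to 616.5 to 659.4 in BALB/cJ and 700.5 to 733.6 in C57BL/6ByJ with none of 9 called and without overlap, and choroid plexus and ependyma markers to 3812 to 4803 against 4226 to 4986. Among all single genes, 13.5% had no overlap between the strains' arrays, and the sums were not tested. The part of cell makeup or dissection in the gene differences was not tested.

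Lists without any called gene also included DEAD and DEAH box helicases (51 genes), proteasome subunits (49), chaperones (111), water and chloride channels and gap junctions (52), orphan and adhesion receptors (101), nuclear receptors (80) and DNA repair (100). Their lowest limma adjusted p lay between 0.0588, in DNA repair, and 0.707, in the helicases. At an unadjusted p under 0.05 they held 0 helicases, 1 proteasome gene, 4 chaperones, 4 genes of water and chloride channels and gap junctions, 9 orphan receptors, 5 nuclear receptor genes and 9 repair genes. With the block, 2 orphan receptors and 1 nuclear receptor gene were lower.

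The 150 called genes outside the lists were 57 higher and 93 lower, of which 15 and 26 differed at least 2-fold. Those given here were named after their values were seen and kept their calls without any 1 array. Efhd2, a calcium-binding protein of the actin cytoskeleton, fell 3.33-fold (8.52, 8.36 and 8.39 against 9.96, 10.32 and 10.19; limma adjusted p = 1.39e-05). Pgbd5, a domesticated transposase expressed in neurons, fell 2.75-fold (7.55, 7.54 and 7.64 against 8.97, 9.05 and 9.09; limma adjusted p = 5.08e-06). In both genes every BALB/cJ array lay below every C57BL/6ByJ array.

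Enzymes of hormones and metabolites were among them. Hsd11b1, which regenerates active glucocorticoid inside cells, fell 2.13-fold (6.67, 6.60 and 6.58 against 7.68, 7.66 and 7.78; limma adjusted p = 5.58e-05). Gatm, the first enzyme of creatine synthesis, fell 1.64-fold and Crym, a thyroid hormone-binding protein, 1.52-fold (limma adjusted p = 0.00428 and 0.00407). Etnppl, an astrocyte enzyme of phosphoethanolamine breakdown, fell 1.96-fold, and Hopx, a small homeodomain protein of neural stem cells and astrocytes, 1.84-fold (limma adjusted p = 0.00423 and 0.00037). In the other direction, Lpl, lipoprotein lipase, rose 2.02-fold (7.48, 7.51 and 7.32 against 6.46, 6.36 and 6.44; limma adjusted p = 0.000375), with its other probe set called too. That second call was lost without C57BL/6ByJ replicate 1 or BALB/cJ replicate 1 or 2.

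Serpina3n, a protease inhibitor that reactive astrocytes secrete, rose 2.46-fold (6.70, 7.06 and 6.87 against 5.40, 5.60 and 5.74; limma adjusted p = 0.000573). Scg5, the chaperone of a prohormone convertase, rose 1.67-fold (10.23, 10.17 and 10.09 against 9.54, 9.46 and 9.27; limma adjusted p = 0.00569). Raph1, lamellipodin, which brings actin polymerisers to the cell edge, rose 2.27-fold (8.16, 7.85 and 8.15 against 6.78, 6.86 and 6.96; limma adjusted p = 9.85e-05), while its 2 other probe sets were not called.

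Of the 241 called genes, 239 were placed on chromosomes 1 to 19 or X, and 2 had no placed chromosome. Chromosome 4 held 25 of its 1087 genes (2.3%), 6 higher and 19 lower, chromosome 14 held 2.18% and chromosome 12 held 2.09%, against 1.32% of all genes. Chromosome 15 held 2 of 724 (0.276%). All 5 called genes of chromosome 19 were lower, among them Aldh1a1, Eif3a, Gfra1 and Il33. In 12 pairs of adjacent measured genes both were called, 9 in the same direction and 3 in opposite directions. Whether this differs from unrelated pairs was not tested, and 159 of all 241 called genes were lower. Pairs in the same direction included Kcnj9 and Kcnj10 (1.70 and 0.67), C1qb and C1qc (-0.75 and -0.75), Zfp945 and Zfp40 (-1.46 and -1.14) and, on chromosome 8, Hpgd, which breaks down prostaglandins, and Cep44 (-0.69 and -0.93). On chromosome 14, Rpgrip1, Supt16 and Chd8 follow each other and went down, up and down (-5.74, 1.30 and -0.92). Hpgd was named after its values were seen.

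**Figure D5:**
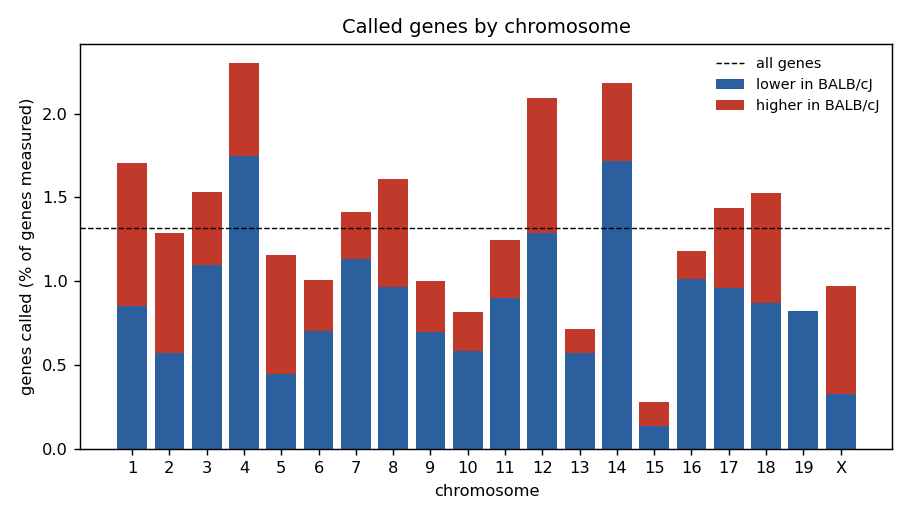
Share of measured genes called on each chromosome, lower (bottom) and higher (top) in BALB/cJ, with the share over all genes (1.32%) as a dashed line. Chromosome 4 stands highest at 2.3% and chromosome 15 lowest at 0.276%.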

How the data were processed

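Affymetrix Mouse Genome 430 2.0 arrays measured RNA of pooled brain hemispheres. The deposited values are linear signal intensities, 1 for each probe set on each array. GCOS and RMA appear in the submitters' processing notes; their order and versions are not given in the sources used here. RMA tends to compress differences between dim signals. The median intensity of an array lay between 15.49 and 15.99. Intensities were taken to log2, 64 control probe sets of 45101 were left out, and no further normalization was applied.

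Of the probe sets, 34945 have 1 gene in the platform annotation, 932 several and 9160 none. Symbols and chromosomes came from RefSeq (GRCm38.p6), where 34741 probe sets with 1 gene were matched. The text gives no fold where the lower strain's mean was under the median of all probe sets (3.968 log2).

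limma 3.58.1 (R 4.3.3) fitted 1 mean per strain to all 9 arrays (6 residual degrees of freedom, prior 4.823), with a moderated two-sided test and Benjamini-Hochberg adjustment over 45037 probe sets at a threshold of 0.05. SE is that of a log2 difference and SD is over 3 arrays. The model was tested on simulated data. Tables were joined with Python 3.11.15 and pandas 2.3.3, and figures drawn with matplotlib 3.10.9.

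The comparison, the 56 gene lists and the markers were chosen with earlier results of these data known. Named genes are the 10 each way with the largest median difference among genes with at least 2 probe sets called alike, up to 3 called genes per list by size, and every called cell type marker; other genes are marked as named after their values were seen. The rule named 90 genes.

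The design text gives 3 batches with every strain in each, while no label ties a replicate number to a batch. Deviations of same-numbered C57BL/6ByJ and BALB/cJ arrays from their strain means correlated at 0.519, 0.168 and 0.263 over probe sets. Other-numbered ones correlated between -0.363 and 0.142, so the numbers were taken to pair the arrays. Deviations are from each strain's own mean, so these values are not independent of each other. The value of replicate 2 (0.168) was close to the highest other-numbered one (0.142). Alternatives were this replicate block, the 6 arrays alone, quantile normalization, log2(value + 16), only probe sets above the median level, no _s_at, _x_at or _a_at probe sets, eBayes with trend and robust estimation, the median over a gene's probe sets, and leaving out each array.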

Additional observations from a re-analysis of the deposited data

How the results depend on the processing

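The share of calls that were higher in BALB/cJ moved by less than 10 percentage points. With the replicate block, the pairing of arrays by number, 953 probe sets, 362 genes and 66 genes with probe sets called alike passed, against 644, 241 and 41 without it; it added 121 genes and lost none, and changed no other call of a named gene. Without _s_at, _x_at and _a_at probe sets, 20 genes were called alike, since fewer probe sets per gene were tested. Leaving out 1 array gave 410 to 706 probe sets, 152 to 264 genes and 27 to 44 genes called alike. With the median over a gene's probe sets, 249 genes were called, 150 of them shared with the 241. It was set against 108 called genes named in the text, a comparison chosen after seeing the data. Ptp4a2, Pdxdc1, Prune2 and Hpgd were not among the 108. That median ended 32 of the 108 calls and turned 6 directions. The limma differences were 0.08 for Chd8, 0.45 for Slc25a51 (called), 0.03 for Sox11, 0.06 for Tbc1d24, 0.32 for Zfp945 and 0.14 for Zfp207. The cause was not tested. On the probe set read in the main fit, none of the 108 turned direction under the other alternatives that kept that probe set. Without _s_at, _x_at and _a_at probe sets, Slc15a2 keeps only a probe set that was higher in the main fit (0.96). Of these 108 genes, 70 kept their call without any 1 array. The log2(value + 16) scale gave 209 genes and ended 17 calls of named genes (limma adjusted p from 0.0509 to 0.118); the 6 arrays alone ended 7, quantile normalization 3 and eBayes with trend and robust estimation 2. Signal near background limits what can be seen in the dimmest genes.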
